A study of Mus musculus with 12 samples.

Results

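The genes described here are 46 markers of splenic cells other than B cells, measured in sorted mouse B cells to see which RNAs of other cells came through the sort. They are listed by name as markers of platelets (8 genes), macrophages (12), erythroid cells (6), T cells (7), dendritic cells (5), granulocytes (5) and natural killer (NK) cells (3). All 46 were found among the 43629 genes of the deposited count table. RNA was sequenced from 12 sorted samples in groups of 4. Zfp36l1-deficient marginal zone (MZ) B cells had the genotype Zfp36l1fl/flERT2cre/+ (replicates 1, 2, 7 and 8). Control MZ B cells were ERT2cre/ERT2cre (replicates 3, 4, 5 and 6), and follicular (FO) B cells were Zfp36l1fl/fl cre- (replicates 3, 4, 7 and 8). The strain label is Zfp36l1tm1.1Tnr in every sample. Between the MZ groups both the floxed Zfp36l1 allele and the ERT2cre copy number therefore differed. ERT2cre is a Cre recombinase that works only when its receptor domain is bound by tamoxifen, and the labels name neither a promoter for it, nor a treatment, nor an age.

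MZ B cells sit at the edge of the splenic follicle, next to the marginal sinus, where blood, platelets, red cells and several kinds of macrophage pass or reside, whereas FO B cells fill the follicle itself. A marker RNA can enter a sorted sample with a cell of the other type, with a fragment or free RNA that clings to a B cell, or because B cells themselves make some of it. In bulk samples such as these, fewer cells of a type and less RNA per cell cannot be told apart.

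The libraries held 28938453 to 40664963 counts each. Levels are given in CPM (counts scaled to a common library total) after scaling by TMM, which equalises the bulk of genes between libraries. Zfp36l1 had 22.0, 31.8, 28.1 and 37.5 CPM in deficient MZ replicates 1, 2, 7 and 8, 116, 110, 118 and 126 CPM in control MZ replicates 3, 4, 5 and 6, and 369, 396, 352 and 361 CPM in FO replicates 3, 4, 7 and 8, which fits the labels. Ms4a1, which encodes the B cell surface protein CD20, averaged 3783 ± 188 CPM in deficient MZ, 3351 ± 197 in control MZ and 2479 ± 74.8 in FO libraries (SD, n = 4 each). Fcer2a, which encodes the CD23 used in the gates, averaged 112 ± 35.5 CPM in deficient MZ, 129 ± 44.6 in control MZ and 1287 ± 112 in FO libraries. Of 10 B cell genes tested between deficient and control MZ cells (tests described below), edgeR called 0. At an unadjusted p under 0.05, 3 were higher and 1 was lower in deficient cells. DESeq2 called 1 lower in deficient cells, Cr2, which encodes the CD21 used in the gates. MZ and FO samples also differed in genotype and, per the series' design text, in kit and read layout, so cell type, genotype and library method cannot be told apart in any MZ against FO comparison. FO replicate 4 stood apart: it was the highest of the 4 FO libraries for 12 of 12 macrophage, 6 of 6 erythroid and 4 of 5 dendritic members. Deficient MZ replicate 1 was the highest of the 8 MZ libraries for 6 of 12 macrophage and 5 of 6 erythroid members. Fits and sums without FO replicate 4 or deficient replicate 1 are given beside the macrophage and erythroid results.

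The 46 markers together were a small part of each library. Their summed level was 162, 115, 132 and 116 CPM in deficient MZ replicates 1, 2, 7 and 8, 123, 110, 136 and 118 CPM in control MZ replicates 3 to 6, and 69.8, 96.6, 66.3 and 68.2 CPM in FO replicates 3, 4, 7 and 8. This equals 0.570 to 0.751% of the summed level of 10 B cell genes in deficient MZ, 0.561 to 0.677% in control MZ and 0.385 to 0.553% in FO libraries. The deficient and control MZ ranges overlapped, and both lay above the FO range. Much of the sum came from 1 gene: the T cell list, nearly all of it Lck, made up 28.2 to 38.4% of the sum in deficient MZ, 30.1 to 36.9% in control MZ and 50.2 to 60.2% in FO libraries. On the scale that allows genes to be compared, CPM per kb of exon length averaged over the 12 libraries, Lck stood first at 13.9, followed by Cd68 (6.98), Hbb-bs (3.54), Ppbp (3.26), Lyz2 (2.58), Spic (2.30), Hba-a1 (2.23), Hbb-bt (2.15) and Pf4 (2.12), and Mpo stood last at 0.00204. Of the 46 members, 8 (4 granulocyte, 2 T cell and 2 NK) never exceeded 3 counts in any library.

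**Figure D1:**
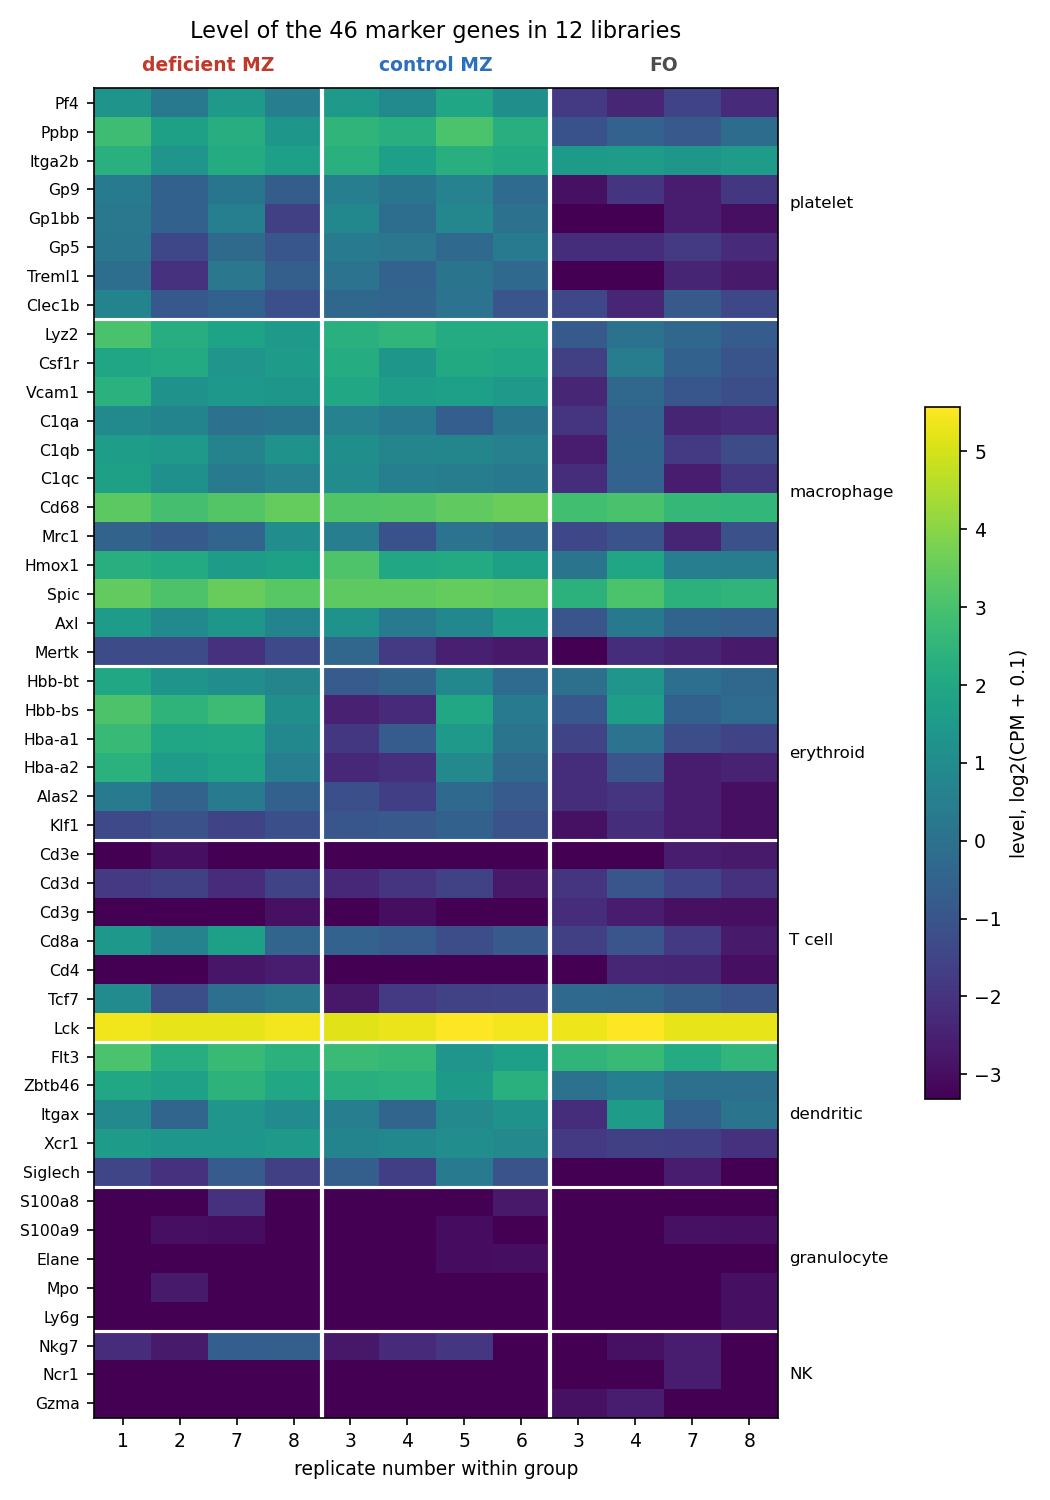
Level of each of the 46 markers (rows, grouped by cell type) in each of the 12 libraries (columns: deficient MZ, control MZ, FO), as log2(CPM + 0.1). Yellow is high and purple low: most platelet and macrophage rows are lighter in the 8 MZ libraries than in the FO libraries, the granulocyte rows are almost empty, and Lck is at a like level in all 12.

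Summed by cell type, the lists did not move together. The macrophage markers summed to 43.3 ± 7.34 CPM in deficient MZ, 44.4 ± 4.46 in control MZ and 18 ± 5.42 in FO libraries (SD, n = 4 each). Without FO replicate 4 the FO sum was 15.3 ± 0.0373, and without deficient replicate 1 the deficient sum was 39.7 ± 0.898 (n = 3 each). Platelet markers summed to 13.4 ± 5.42, 17.5 ± 4.02 and 4.06 ± 0.297 CPM in deficient MZ, control MZ and FO libraries. Erythroid markers summed to 25.1, 15.3, 17.5 and 7.56 CPM in deficient MZ replicates 1, 2, 7 and 8, to 1.61, 2.04, 11.2 and 4.54 CPM in control MZ replicates 3 to 6, and to 1.85, 7.09, 1.94 and 1.86 CPM in FO replicates 3, 4, 7 and 8. The median erythroid sum was 16.4 CPM in deficient MZ and 3.28 CPM in control MZ libraries, and control replicate 5 lay above deficient replicate 8. The mean erythroid sum was 16.4 ± 7.22 CPM over the deficient libraries (n = 4) and 13.5 ± 5.24 CPM without replicate 1 (n = 3). T cell markers summed to 42.8 ± 2.79, 42.3 ± 4.73 and 42.0 ± 4.59 CPM, and dendritic markers to 14.7 ± 2.82, 12.7 ± 2.0 and 7.84 ± 2.09 CPM, in deficient MZ, control MZ and FO libraries. Granulocyte and NK sums stayed at or under 0.545 CPM in every library.

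**Figure D2:**
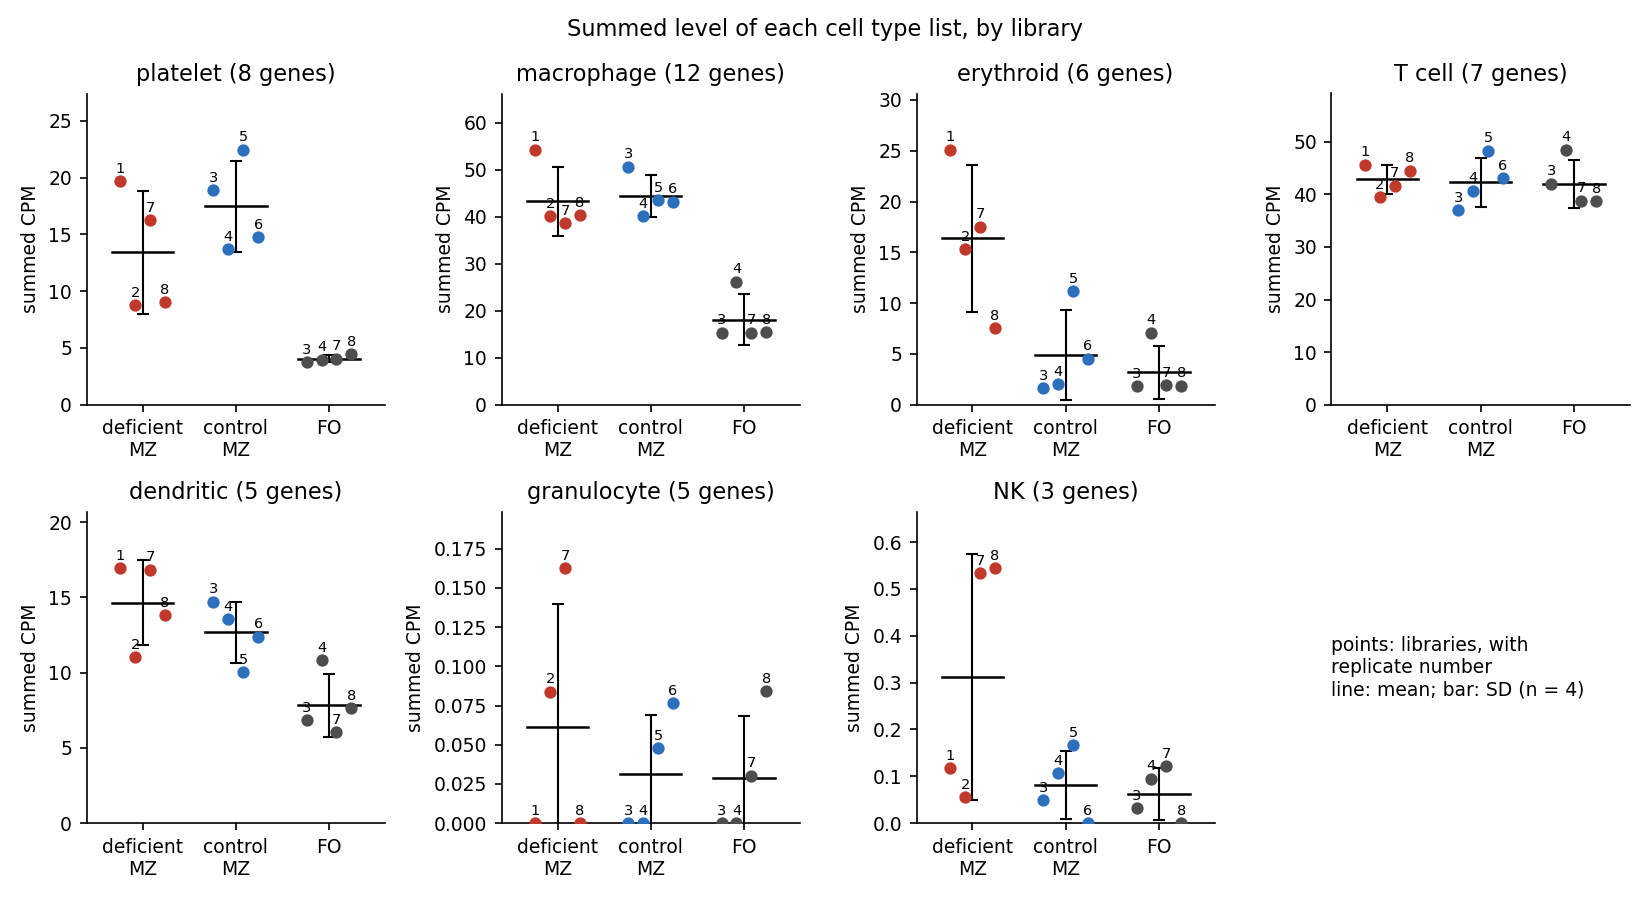
Summed CPM of each marker list (panels) by library, with a numbered point per library, a line at the group mean and a bar of 1 SD (n = 4). Macrophage and platelet sums are higher in both MZ groups than in FO, the erythroid sum ranges from 7.56 to 25.1 CPM in deficient MZ and from 1.61 to 11.2 CPM in control MZ libraries, and FO replicate 4 is the high FO point for macrophage and erythroid markers.

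Each comparison was tested across the whole table with edgeR's quasi-likelihood test, and a gene was called at an adjusted p (Benjamini-Hochberg over all tested genes) under 0.05. In deficient against control MZ cells, 34 members passed edgeR's filter on low counts and 12 did not. Of the 34 tested, 3 were called, all higher in deficient cells: Hbb-bt, Cd8a and Tcf7. That is 8.82% of those tested, where 3.76% of the 13987 genes tested were called (2.3% higher and 1.46% lower in deficient cells). Tcf7 passed the filter through the deficient libraries alone, and the Hbb-bt call held in 1 of 8 fits that left out 1 library. A share resting on 3 such calls does not show an excess over all genes. The median log2 fold change was 0.01 over the 34 members and -0.0037 over all genes tested. At an unadjusted p under 0.05, 7 members were higher and 0 lower, beside 2682 of the 13987 genes in either direction. DESeq2 called 4 members higher, the fourth being Xcr1, and 0 lower. Over all genes it called 567 higher and 482 lower of 13343 tested.

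Between MZ and FO cells most genes of the table differed, and the count of markers called was near that background. Deficient MZ against FO left 16 members under the filter and gave 25 of 30 tested members higher and 0 lower (83.3%), where 81.1% of the 13895 genes tested were called (42.8% higher and 38.3% lower). DESeq2 called 30 members higher and 0 lower there, beside 7111 higher and 5750 lower of 19450 genes. At an unadjusted p under 0.05 the edgeR fit had 25 higher and 0 lower, beside 11399 of 13895 genes in either direction. Control MZ against FO likewise left 16 untested and gave 23 higher and 1 lower of 30 tested members (80%), where 81.3% of 13843 genes were called (42.6% higher and 38.7% lower). The share called was thus like that of all genes, while the direction was mostly 1 way: the median log2 fold change of tested members was 2.30 in deficient MZ and 1.85 in control MZ against FO, beside 0.06 and 0.05 for all genes. A member seen only in MZ libraries passed the filter through those libraries and had to differ, so these counts describe the tested members and are not evidence about all 46. The comparisons share the 4 FO libraries. Of the members called higher, 20 were called in both comparisons, 5 erythroid genes (Alas2, Hba-a1, Hba-a2, Hbb-bs and Hbb-bt) in deficient MZ alone and 3 platelet genes (Gp1bb, Itga2b and Treml1) in control MZ alone. These differences are not themselves tests between the MZ groups. Of these 8 genes, Alas2 and Hba-a2 did not pass the filter in control MZ against FO, nor Gp1bb and Treml1 in deficient MZ against FO. DESeq2 called all 4 higher there as well.

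**Figure D3:**
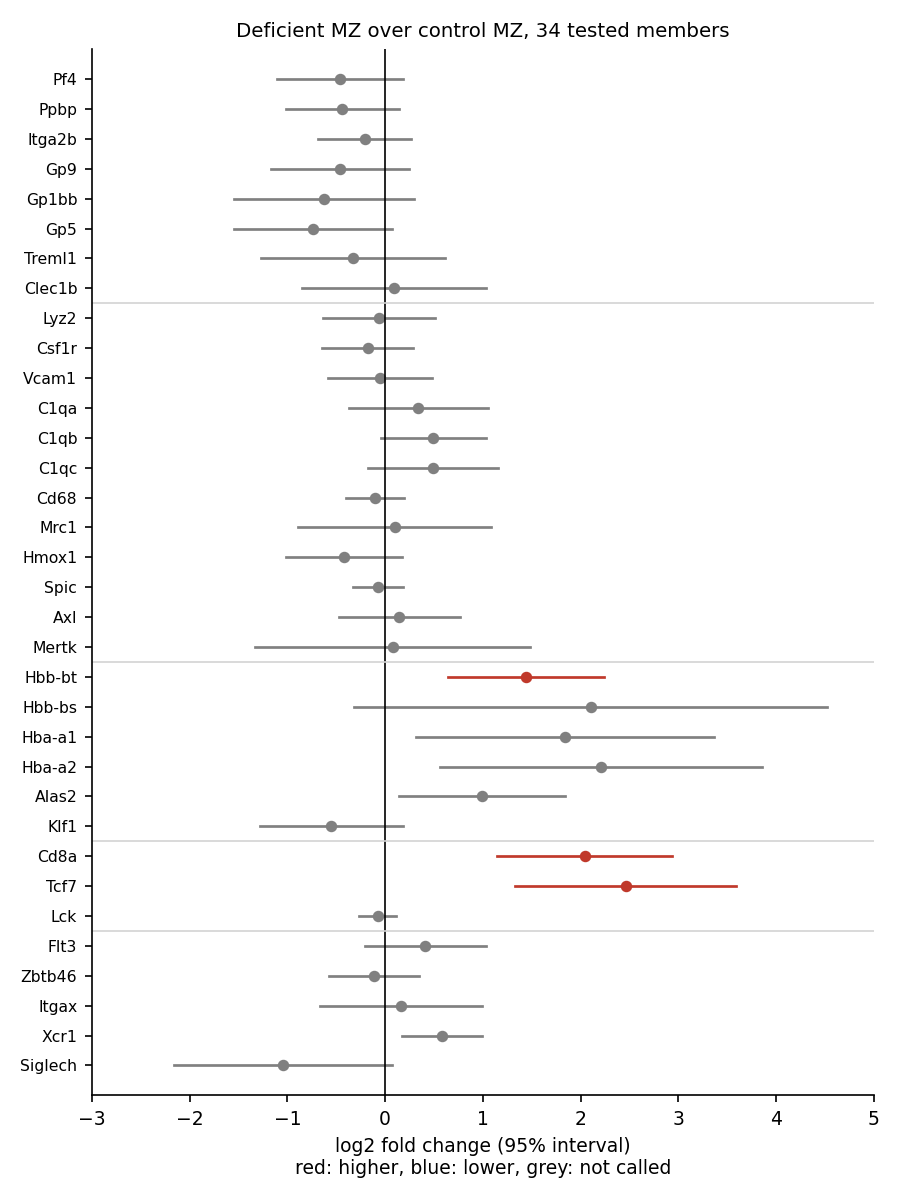
Log2 fold change of each tested marker in deficient against control MZ cells, with its 95% confidence interval, grouped by cell type, from edgeR's quasi-likelihood fit on 8 libraries. Red marks the 3 members called higher (Hbb-bt, Cd8a and Tcf7), grey those not called, and 7 of the 8 platelet points lie below 0.

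Platelet RNAs were present in both MZ groups, at overlapping levels, and most of them were scarce in FO cells. Ppbp, the precursor of a platelet chemokine stored in alpha granules, had 6.88, 3.24, 4.51 and 2.50 CPM in deficient MZ replicates 1, 2, 7 and 8, 5.51, 4.63, 8.29 and 4.64 CPM in control MZ replicates 3 to 6, and 0.377, 0.601, 0.455 and 0.787 CPM in FO replicates 3, 4, 7 and 8. Pf4, platelet factor 4, had 2.31, 1.12, 2.69 and 1.31 CPM in deficient MZ, 2.67, 1.82, 3.70 and 2.04 CPM in control MZ, and 0.188, 0.0949, 0.243 and 0.112 CPM in FO libraries. For both genes the MZ groups overlapped and every MZ library lay above every FO library. Deficient replicates 2 and 8 were the lowest of the 8 MZ libraries for 4 platelet members each.

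None of the 8 tested platelet members was called between deficient and control MZ cells (0 by edgeR, 0 at an unadjusted p under 0.05, 0 by DESeq2). Of the log2 fold changes, 7 of 8 were below 0, with a median of -0.45. Ppbp differed by -0.44 (SE 0.27, adjusted p = 0.408 by edgeR) and Pf4 by -0.46 (SE 0.30, adjusted p = 0.438). Against FO, Pf4 was higher in deficient MZ cells by a log2 fold change of 3.55 (SE 0.41, adjusted p = 2.52e-06 by edgeR) and in control MZ cells by 3.99 (SE 0.36, adjusted p = 2.42e-07). Ppbp was higher in deficient MZ cells by 2.96 (SE 0.34, adjusted p = 2.71e-06) and in control MZ cells by 3.37 (SE 0.27, adjusted p = 7.65e-08). Of the glycoproteins of the von Willebrand factor receptor, Gp9 and Gp5 were called higher against FO in both MZ groups, with log2 fold changes of 2.94 and 2.18 in deficient and 3.38 and 2.90 in control MZ cells. Gp1bb, another chain of that receptor, and Treml1, an alpha granule receptor, had 123 and 95 counts over the deficient MZ libraries, 203 and 129 over the control MZ libraries, and 3 and 5 over the FO libraries. Against FO both were called higher in control MZ cells (log2 fold changes of 5.61 and 4.31). In deficient MZ cells neither passed the filter with all 8 libraries. DESeq2 called both higher there than in FO (5.19 and 4.11), and edgeR did so without the filter and in 5 of 8 fits that left out 1 library. Of the 100-base windows of the Gp1bb transcript, 92.6% also occur in the overlapping transcripts of Sept5 and Gm49601, so its counts are uncertain. Clec1b, the podoplanin receptor of platelets, was called higher against FO in deficient (1.39) and control (1.27) MZ cells, but the call in deficient cells held in 4 of 8 fits that left out 1 library and was lost without deficient replicate 1 or FO replicate 3, 4 or 8.

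The chains of the platelet integrin differed in their order of groups. Itga2b, the platelet integrin alpha chain, had 4.86, 2.37, 4.37 and 3.17 CPM in deficient MZ, 4.94, 3.16, 4.73 and 4.18 CPM in control MZ and 2.76, 2.88, 2.49 and 2.92 CPM in FO libraries. Its log2 fold change against FO was 0.45 in deficient (adjusted p = 0.0693, not called) and 0.63 in control MZ cells (adjusted p = 0.00407, edgeR). Its partner Itgb3, the beta chain that is also part of the vitronectin receptor and is not among the 46, had 7.90, 9.08, 7.60 and 7.94 CPM in deficient MZ, 16.3, 15.4, 16.4 and 11.6 CPM in control MZ and 63.2, 55.9, 60.7 and 56.7 CPM in FO libraries. The 3 groups of Itgb3 did not overlap. Itgb3 was lower in deficient than in control MZ cells (log2 fold change -0.89, SE 0.13, adjusted p = 0.00141 by edgeR) and lower than in FO cells in both deficient (-2.83) and control (-1.97) MZ cells. Pf4 and Ppbp pointed the other way against FO, while their uncalled differences between deficient and control MZ cells were also below 0. Of 6 further platelet genes tested between deficient and control MZ cells, Itgb3 was the only one called. Against FO, that further list had 3 genes higher and 2 lower of 5 tested in deficient MZ cells, and 4 higher and 2 lower of 6 tested in control MZ cells. The lower ones were Itgb3 and Selp, the adhesion molecule P-selectin, named after its values were seen. Selp averaged 0.201 ± 0.113 CPM in deficient MZ, 0.250 ± 0.109 in control MZ and 2.32 ± 0.268 in FO libraries (SD, n = 4 each).

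Macrophage RNAs also overlapped between deficient and control MZ cells, and those tested were higher in both than in FO cells. Lyz2, lysozyme of macrophages and neutrophils, had 8.05, 4.58, 3.48 and 2.66 CPM in deficient MZ, 4.97, 5.70, 4.37 and 4.38 CPM in control MZ and 0.471, 0.886, 0.698 and 0.506 CPM in FO libraries. Cd68, a lysosomal glycoprotein of macrophages, had 10.04, 7.65, 9.13 and 11.02 CPM in deficient MZ, 8.85, 9.16, 10.53 and 11.8 CPM in control MZ and 7.31, 8.03, 5.95 and 5.76 CPM in FO libraries. Lyz2 separated MZ from FO libraries completely, whereas Cd68 in deficient replicate 2 lay below FO replicate 4. Mertk, a receptor for apoptotic cells, was rare, with 11, 11, 6 and 9 counts in deficient MZ, 27, 7, 3 and 2 counts in control MZ and 0, 4, 3 and 2 counts in FO libraries.

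Between deficient and control MZ cells 12 of 12 macrophage members were tested and none was called (0 by edgeR, 0 at an unadjusted p under 0.05, 0 by DESeq2), with a median log2 fold change of 0.01. Lyz2 differed by -0.06 (SE 0.27), Cd68 by -0.10 (SE 0.14) and Mertk by 0.08 (SE 0.66). The widest positive values were those of the complement genes C1qb (0.49, SE 0.25) and C1qc (0.49, SE 0.31), whose deficient and control libraries overlapped. Against FO, 11 of 11 tested members were called higher in deficient MZ cells and 11 of 11 in control MZ cells, with median log2 fold changes of 2.47 and 2.10. Of all genes tested, 42.8% and 42.6% were called higher in these comparisons. Mertk did not pass the filter in either. DESeq2 called it higher than in FO in deficient (1.96, adjusted p = 0.0273) but not in control MZ cells (1.85, adjusted p = 0.112). Lyz2 was higher in deficient MZ cells by 2.90 (SE 0.35, adjusted p = 4.98e-06) and in control MZ cells by 2.93 (SE 0.23, adjusted p = 5.10e-08), while Cd68 was higher by only 0.51 (SE 0.15, adjusted p = 0.00562) and 0.59 (SE 0.14, adjusted p = 0.00159; edgeR). Hmox1 and Spic, the haem oxygenase and the transcription factor of red pulp macrophages, were higher against FO by 1.11 and 0.75 in deficient and by 1.5 and 0.80 in control MZ cells. The call of Hmox1 in deficient cells was lost without deficient replicate 1, at an adjusted p of 0.0558, while the other tested macrophage members stayed called. In control cells the Hmox1 call was lost without the low-count filter and with the replicate number as a block. The block also removed the control calls of Csf1r, Cd68, Mrc1 and Axl, and that of the platelet gene Itga2b. That block compares only control replicates 3 and 4 with FO replicates 3 and 4. Between deficient and control MZ cells, leaving out deficient replicate 1 gave -0.44 for Lyz2 (adjusted p = 0.274) and again no macrophage call.

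The size of several macrophage differences depended on FO replicate 4. That library had 19, 20 and 19 counts of C1qa, C1qb and C1qc, against 3 to 5, 2 to 11 and 2 to 6 in the other FO libraries. With all libraries the log2 fold changes against FO of these 3 genes were 2.47, 3.0 and 3.06 in deficient MZ and 2.10, 2.48 and 2.54 in control MZ cells. Without FO replicate 4 they were 3.41, 3.62 and 4.01 in deficient MZ and 3.05, 3.11 and 3.5 in control MZ cells. Hmox1 against FO became 1.69 in deficient and 2.09 in control MZ cells.

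Adgre1, which encodes the F4/80 antigen of red pulp macrophages and is not among the 46, had 4.22, 4.19, 5.48 and 4.10 CPM in deficient MZ, 2.15, 0.696, 2.24 and 1.81 CPM in control MZ and 5.52, 17.9, 8.5 and 9.16 CPM in FO libraries. The groups did not overlap. It was higher in deficient than in control MZ cells (log2 fold change 1.37, SE 0.28, adjusted p = 0.0136 by edgeR) and lower than in FO cells in both deficient (-1.16) and control (-2.56) MZ cells. It was the only one of 6 further macrophage genes tested that was called between the MZ groups. Siglec1, the CD169 of marginal metallophilic macrophages (named after its values were seen), averaged 0.839 ± 0.147 CPM in deficient MZ, 0.367 ± 0.134 in control MZ and 0.113 ± 0.0782 in FO libraries. Its MZ groups did not overlap, but the log2 difference of 1.17 was not called (adjusted p = 0.0764, edgeR). Against FO, the further macrophage list had 3 genes higher and 1 lower of 5 tested in deficient MZ cells, and 2 higher and 1 lower of 5 tested in control MZ cells. Adgre1 was the lower one in each. Vsig4, a complement receptor of tissue macrophages, had 0 counts in all 12 libraries. Cd163, the haemoglobin scavenger receptor, reached at most 0.163 CPM in deficient MZ, 0.408 in control MZ and 0.0633 in FO libraries.

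Of the 6 erythroid members, 5 had higher mean levels in deficient than in control MZ cells and 1 lower, and a single one passed the test. Promoters of 5 of them are shown, the exception (Klf1) last, so that genes pointing either way can be compared. Globin, haem synthesis and erythroid factor genes carry sites for GATA1, the master factor of the red cell lineage. The 250 bases before the start of each gene were read from RefSeq (build GRCm38.p6), which matched 41 of the 46 members. The sequences run 5′ to 3′ on the gene's strand, with the letters GATAA, or TTATC where the match is on the other strand, in capitals.
Hbb-bt, chr7:103813924-103814173, minus strand: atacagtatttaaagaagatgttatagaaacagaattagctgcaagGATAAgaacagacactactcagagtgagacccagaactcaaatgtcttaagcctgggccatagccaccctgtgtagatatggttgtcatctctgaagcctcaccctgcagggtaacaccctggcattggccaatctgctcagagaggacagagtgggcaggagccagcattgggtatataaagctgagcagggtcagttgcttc
Hbb-bs, chr7:103827929-103828178, minus strand: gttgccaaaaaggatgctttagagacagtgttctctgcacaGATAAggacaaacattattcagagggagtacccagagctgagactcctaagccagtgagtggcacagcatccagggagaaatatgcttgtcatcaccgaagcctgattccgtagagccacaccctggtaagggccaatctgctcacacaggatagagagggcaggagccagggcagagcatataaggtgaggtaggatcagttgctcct
Hba-a1, chr11:32283422-32283671, plus strand: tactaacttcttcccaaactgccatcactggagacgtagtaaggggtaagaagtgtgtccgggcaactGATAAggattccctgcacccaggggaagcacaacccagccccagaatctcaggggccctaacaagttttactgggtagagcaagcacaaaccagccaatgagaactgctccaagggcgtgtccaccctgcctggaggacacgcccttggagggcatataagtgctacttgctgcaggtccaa
Alas2, chrX:150547167-150547416, plus strand: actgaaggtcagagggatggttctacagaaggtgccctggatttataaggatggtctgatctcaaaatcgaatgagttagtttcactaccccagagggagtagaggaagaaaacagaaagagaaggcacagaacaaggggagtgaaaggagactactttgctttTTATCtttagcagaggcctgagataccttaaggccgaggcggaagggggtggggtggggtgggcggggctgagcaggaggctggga
Klf1, chr8:84901732-84901981, plus strand: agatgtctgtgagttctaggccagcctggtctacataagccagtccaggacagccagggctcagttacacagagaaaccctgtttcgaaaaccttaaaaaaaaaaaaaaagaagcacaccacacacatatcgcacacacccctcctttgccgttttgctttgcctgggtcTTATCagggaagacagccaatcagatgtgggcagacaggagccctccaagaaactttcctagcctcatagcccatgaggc
The window of Hba-a2 is 98.8% identical to that of Hba-a1, with a shared run of 247 bases, and is not shown, whereas those of Hbb-bt and Hbb-bs are 70.0% identical. GATAA, searched on both strands, was found in 6 of 6 erythroid windows, in 3 of 8 platelet, 0 of 8 macrophage, 3 of 6 T cell, 3 of 5 dendritic, 1 of 5 granulocyte and 0 of 3 NK windows, and in 23.0% of all 27025 promoter windows. CACCC, searched on both strands, was found in 6 of 6 erythroid windows and 51.3% of all windows, and CCAAT, likewise on both strands, in 5 of 6 and 34.5%. GGAAG, searched in the same way, was found in 4 of 6 erythroid windows and 63.6% of all windows. The nearly identical windows of Hba-a1 and Hba-a2 are counted separately here. A match describes letters, not binding, and the motif does not separate the genes by direction, since Klf1 holds it as well.

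Hbb-bt, an adult beta globin gene, had 3.89, 2.35, 1.95 and 1.57 CPM in deficient MZ replicates 1, 2, 7 and 8, 0.494, 0.616, 1.67 and 0.764 CPM in control MZ replicates 3 to 6 and 0.879, 2.37, 0.850 and 0.703 CPM in FO replicates 3, 4, 7 and 8. Hbb-bs, the other adult beta globin gene, had 8.31, 5.42, 6.78 and 2.08 CPM in deficient MZ, 0.0741, 0.107, 3.82 and 1.2 CPM in control MZ and 0.439, 3.07, 0.577 and 0.759 CPM in FO libraries. In both genes control replicate 5 lay above deficient replicate 8, so the MZ groups overlapped. The alpha globin gene Hba-a1 had 6.41, 3.63, 3.95 and 1.67 CPM in deficient MZ, 0.173, 0.509, 2.67 and 0.968 CPM in control MZ and 0.251, 0.949, 0.334 and 0.253 CPM in FO libraries. Its near copy Hba-a2 had 5.03, 2.93, 3.44 and 1.31 CPM in deficient MZ, 0.0988, 0.134, 1.74 and 0.739 CPM in control MZ and 0.126, 0.411, 0.0607 and 0.0843 CPM in FO libraries. Control replicates 3 and 4 were the low MZ libraries of all 4 globin genes, and FO replicate 4 was the high FO library.

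The erythroid member called between deficient and control MZ cells was Hbb-bt (DESeq2 also called 1, and 4 were higher at an unadjusted p under 0.05). It was higher in deficient cells by a log2 fold change of 1.44 (SE 0.37, adjusted p = 0.0464 by edgeR). The call stood close to the threshold: it held in 1 of 8 fits that left out 1 library, with adjusted p from 0.00984 to 0.134, and was lost when all 12 libraries were fitted together. Hbb-bs differed by 2.10 (SE 1.02, adjusted p = 0.321), Hba-a1 by 1.84 (SE 0.67, adjusted p = 0.181) and Hba-a2 by 2.21 (SE 0.73, adjusted p = 0.141), none of them called. Without control replicate 5, the control library with the most globin, Hbb-bt (1.95, adjusted p = 0.00984), Hba-a1 (2.82, adjusted p = 0.0133) and Hba-a2 (3.27, adjusted p = 0.0149) were called and Hbb-bs (3.60, adjusted p = 0.0850) was not. Without deficient replicate 1 the differences were 1.13 for Hbb-bt (adjusted p = 0.112), 1.87 for Hbb-bs, 1.51 for Hba-a1 and 1.91 for Hba-a2, with no erythroid call. Alas2, the erythroid enzyme of haem synthesis, had 1.17, 0.614, 1.16 and 0.577 CPM in deficient MZ and 0.346, 0.214, 0.716 and 0.484 CPM in control MZ libraries, a log2 difference of 0.99 (SE 0.40, adjusted p = 0.190). Klf1, the transcription factor that drives adult beta globin, pointed the other way, with 0.293, 0.363, 0.256 and 0.352 CPM in deficient MZ and 0.420, 0.455, 0.573 and 0.382 CPM in control MZ libraries. The MZ groups of Klf1 did not overlap, but its log2 difference of -0.55 (SE 0.34, adjusted p = 0.409) was not called.

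Against FO, 6 of 6 erythroid members were called higher in deficient MZ cells, where 42.8% of all genes tested were called higher. Their median log2 fold change was 2.75. In control MZ cells 1 of 4 tested members, Klf1 (2.86), was called higher, where 42.6% of all genes tested were. DESeq2 called 3 in control MZ cells, adding Hba-a2 (2.0) and Alas2 (2.26), which had not passed edgeR's filter there. Alas2 was also called by edgeR in 5 of 8 fits that left out 1 library, and Hba-a2 in 2 of 8. In FO replicates 3, 4, 7 and 8, Alas2 had 4, 5, 2 and 1 counts, Klf1 had 1, 4, 2 and 1, and Hba-a2 had 4, 13, 2 and 3. Where tested, these genes passed the filter through the MZ libraries, so their calls describe genes selected by their MZ counts. The call of Hbb-bs in deficient MZ cells was lost when all 12 libraries were fitted together. Hbb-bt was higher in deficient MZ than in FO cells by 1.06 (SE 0.39, adjusted p = 0.0243 by edgeR), a call kept in 4 of 8 fits that left out 1 library. Without deficient replicate 1 it was 0.73 (adjusted p = 0.0997, not called). Hbb-bt in control MZ cells differed from FO by -0.42 (SE 0.46, adjusted p = 0.414). Hba-a1 was higher in deficient MZ than in FO cells by 3.17 (SE 0.48, adjusted p = 5.76e-05), and control MZ cells differed from FO by 1.29 (SE 0.77, adjusted p = 0.147). Without FO replicate 4 these values were 1.60 for Hbb-bt and 3.81 for Hba-a1 in deficient MZ cells, and 0.13 for Hbb-bt and 1.94 (adjusted p = 0.0481, called) for Hba-a1 in control MZ cells. A further list of 10 erythroid genes had a lower sum in MZ than in FO libraries. It summed to 3.31 ± 0.781 CPM in deficient MZ, 2.34 ± 0.902 in control MZ and 18.7 ± 2.16 in FO libraries (SD, n = 4 each). Of it, 1 gene was higher and 2 were lower of 3 tested in deficient MZ cells, and 2 were lower of 2 tested in control MZ cells. DESeq2 called 3 higher and 2 lower in deficient MZ, and 1 higher and 2 lower in control MZ cells against FO. Between deficient and control MZ cells 3 were tested and 0 called (1 was higher at an unadjusted p under 0.05, and 0 were called by DESeq2). The lower genes against FO were Car2 and Hemgn, named after their values were seen, and they held most of the FO sum. Car2, a carbonic anhydrase, had means of 1.41 CPM in deficient MZ, 1.24 in control MZ and 14.8 in FO libraries. Hemgn, a nuclear protein of blood cell precursors, had means of 0.186 CPM in deficient MZ, 0.333 in control MZ and 3.38 in FO libraries.

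The globin genes did not keep a fixed proportion between libraries. The ratio of Hbb-bs to Hbb-bt counts was 2.14, 2.31, 3.48 and 1.33 in deficient MZ, 0.150, 0.174, 2.29 and 1.57 in control MZ and 0.5, 1.29, 0.679 and 1.08 in FO libraries. Reads of these genes can be split between copies: of the 100-base windows of the transcripts, 54.8% in Hbb-bt and 62.6% in Hbb-bs occur in the other, and 56.5% in Hba-a1 and 74.5% in Hba-a2 occur in the other. The values of single globin genes are therefore uncertain.

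**Figure D4:**
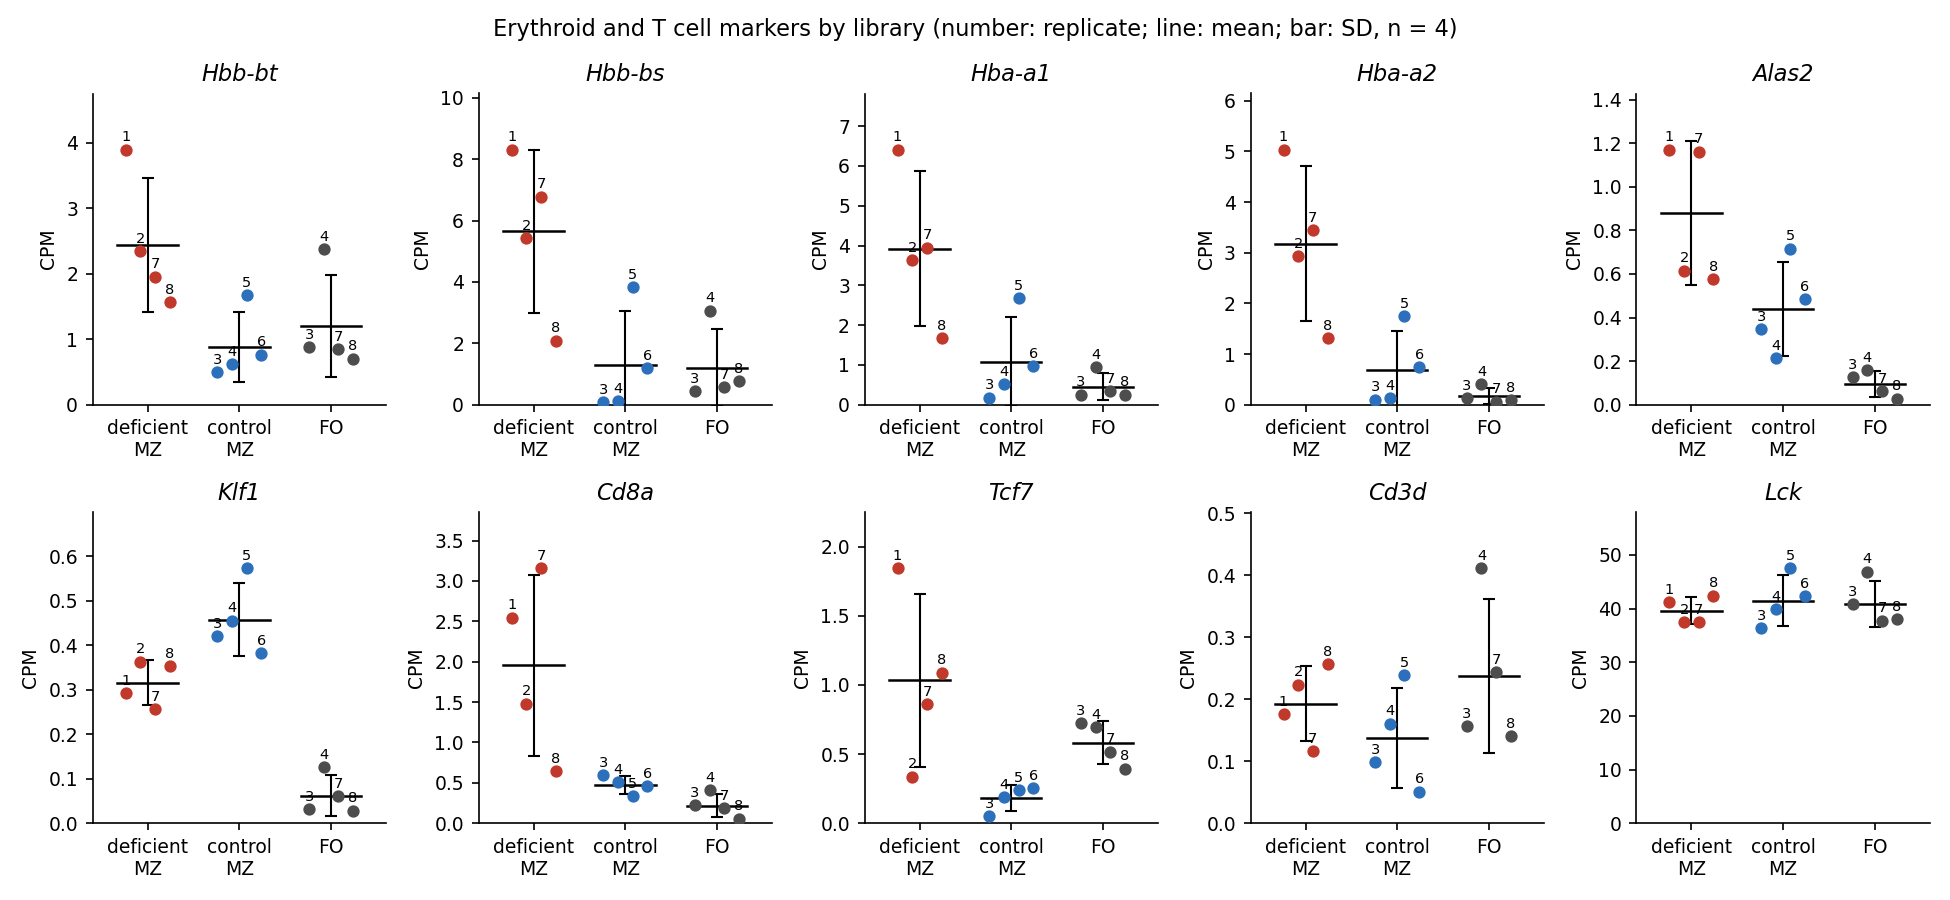
CPM in each library (linear axes from 0, 1 panel per gene) of the 6 erythroid members and of Cd8a, Tcf7, Cd3d and Lck, by group, with a line at the mean and a bar of 1 SD (n = 4). Control MZ replicate 5 overlaps the deficient globin values, Cd8a and Tcf7 of deficient MZ lie above all control MZ libraries, and Lck lies between 36.3 and 47.5 CPM in all 12.

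T cell markers fell into 3 kinds of behaviour. Lck, the kinase that starts T cell receptor signalling, was the most abundant marker per kb and overlapped between all groups, with 41.1, 37.5, 37.5 and 42.4 CPM in deficient MZ, 36.3, 39.8, 47.5 and 42.3 CPM in control MZ and 40.8, 46.8, 37.7 and 38.1 CPM in FO libraries. Its log2 fold change was -0.08 in deficient against control MZ cells (SE 0.09, adjusted p = 0.684), -0.02 in deficient MZ against FO (SE 0.08, adjusted p = 0.872) and 0.03 in control MZ against FO (SE 0.09, adjusted p = 0.747; edgeR). The defining chains of the T cell receptor complex were nearly absent beside it. Cd3e had 1 count over the 4 deficient MZ, 0 over the 4 control MZ and 4 over the 4 FO libraries, Cd3g had 1, 1 and 8, and Cd3d 27, 22 and 31, while Cd4, the co-receptor of helper T cells, had 4, 0 and 7. None of these 4 genes passed the filter on low counts in deficient against control MZ cells.

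Cd8a and Tcf7 were higher in deficient MZ cells. Cd8a, the co-receptor chain of cytotoxic T cells, which XCR1+ dendritic cells of the mouse spleen also carry, had 2.55, 1.48, 3.16 and 0.641 CPM in deficient MZ replicates 1, 2, 7 and 8, 0.593, 0.509, 0.334 and 0.459 CPM in control MZ replicates 3 to 6 and 0.220, 0.411, 0.182 and 0.0562 CPM in FO replicates 3, 4, 7 and 8. Tcf7, the transcription factor TCF-1 of T cells and innate lymphoid cells, had 1.84, 0.335, 0.860 and 1.09 CPM in deficient MZ, 0.0494, 0.187, 0.239 and 0.255 CPM in control MZ and 0.722, 0.696, 0.516 and 0.393 CPM in FO libraries. The deficient and control MZ libraries did not overlap for either gene, although deficient replicate 8 of Cd8a and deficient replicate 2 of Tcf7 lay close to the control range. In counts, Cd8a had 87, 53, 136 and 20 in deficient MZ and 24, 19, 14 and 18 in control MZ libraries. Tcf7 had 63, 12, 37 and 34 in deficient MZ and 2, 7, 10 and 10 in control MZ libraries, so it passed the filter through the deficient libraries alone.

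Cd8a was higher in deficient than in control MZ cells by a log2 fold change of 2.04 (SE 0.42, adjusted p = 0.0147 by edgeR), a call that held in 8 of 8 fits that left out 1 library. Tcf7 was higher by 2.46 (SE 0.53, adjusted p = 0.0185), a call lost without control replicate 3 (adjusted p = 0.0541), control replicate 4 (adjusted p = 0.0567) or deficient replicate 8 (adjusted p = 0.0504). Their orders against FO differed. Cd8a was higher than in FO in deficient MZ cells by 3.22 (SE 0.54, adjusted p = 0.000115) and in control MZ cells by 1.14 (SE 0.45, adjusted p = 0.0329), the call in control cells being kept in 2 of 8 fits that left out 1 library. It was lost without control replicate 3, 4 or 6, without FO replicate 3, 7 or 8, without the low-count filter, with DESeq2, with all 12 libraries in 1 fit and with the replicate number as a block. That block compares only control replicates 3 and 4 with FO replicates 3 and 4. Tcf7 was lower than in FO in control MZ cells, by a log2 fold change of -1.64 (SE 0.42, adjusted p = 0.00285), and differed by 0.85 in deficient MZ cells (SE 0.43, adjusted p = 0.0808), where it was called without deficient replicate 2. In the authors' deposited table for deficient against control MZ cells, the log2 fold changes were 0.59 for Cd8a (adjusted p = 0.00041), 0.47 for Tcf7 (adjusted p = 0.00216), 0.50 for Hbb-bt (adjusted p = 0.00657) and 0.39 for Xcr1 (adjusted p = 0.0447), and no other member was below 0.05. Those fold changes are smaller than the edgeR values, and no source used here says whether they were shrunk.

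The further lists of T cell, NK and dendritic genes are given beside Cd8a and Tcf7. The 15 further T cell genes summed to 189, 146, 150 and 173 CPM in deficient MZ, 124, 122, 148 and 123 CPM in control MZ and 269, 282, 267 and 277 CPM in FO libraries. The 7 further NK genes summed to 39.1, 23.5, 29.1 and 25.6 CPM in deficient MZ, 22.9, 24.8, 24.9 and 19.4 CPM in control MZ and 4.46, 4.33, 3.16 and 3.40 CPM in FO libraries. The MZ groups overlapped in both sums. In every library most of the T cell sum was Cd2, a receptor that B cells carry as well (values below). The order of that sum between MZ and FO libraries was therefore that of Cd2, and the other genes of the list were not summed apart. Of these lists, 1 of 6 tested T cell genes and 1 of 3 tested NK genes were called between the MZ groups. Ccl5, a chemokine of memory T and NK cells, had 11.5, 3.35, 6.25 and 2.85 CPM in deficient MZ, 1.21, 0.964, 2.03 and 1.27 CPM in control MZ and 0.753, 0.601, 0.486 and 0.422 CPM in FO libraries. It was higher in deficient than in control MZ cells by 2.11 (SE 0.40, adjusted p = 0.0126 by edgeR). Cd2, an adhesion receptor of T, NK and B cells, had 167, 129, 133 and 154 CPM in deficient MZ, 106, 105, 131 and 108 CPM in control MZ and 261, 273, 259 and 270 CPM in FO libraries. It was higher in deficient than in control MZ cells by 0.37 (SE 0.09, adjusted p = 0.0404). Ccl5 separated the MZ groups, while Cd2 in control replicate 5 lay above deficient replicate 2. A further list of 7 dendritic genes summed to 5.62, 3.63, 4.09 and 1.92 CPM in deficient MZ, 1.80, 1.02, 1.46 and 1.1 CPM in control MZ and 4.39, 3.73, 4.07 and 4.41 CPM in FO libraries, so its MZ groups did not overlap. Of its 7 genes, Cadm1 and Clec9a, which XCR1+ dendritic cells express, were named after their values were seen. Cadm1 had 2.52, 1.84, 1.56 and 0.288 CPM in deficient MZ and 0.593, 0.428, 0.525 and 0.510 CPM in control MZ libraries. Clec9a had 0.761, 0.531, 0.418 and 0.224 CPM in deficient MZ and 0.0741, 0, 0.0239 and 0.0255 CPM in control MZ libraries. Deficient replicates 1, 2 and 7, the libraries with most Cd8a, were also the highest of the 8 MZ libraries for Cadm1 and Clec9a. In deficient replicate 8, Cadm1 lay below every control MZ library. Xcr1 itself, given below, did not follow that order, since deficient replicate 8 lay above replicates 2 and 7. Of the 3 genes of that list tested, 2 were higher in deficient MZ cells at an unadjusted p under 0.05 and 0 were called by edgeR, while DESeq2 called 1. The part of T cells, NK cells and dendritic cells in the Cd8a and Tcf7 differences was not tested.

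Among the dendritic members the order of groups depended on the gene. Flt3, the receptor for the growth factor of dendritic cells, overlapped between all groups, with 8.20, 4.55, 6.20 and 5.16 CPM in deficient MZ, 6.52, 5.97, 2.36 and 3.11 CPM in control MZ and 5.62, 6.42, 4.31 and 5.65 CPM in FO libraries. Zbtb46, a transcription factor of conventional dendritic cells, had 3.86, 3.27, 5.32 and 3.94 CPM in deficient MZ, 4.84, 5.03, 2.79 and 4.97 CPM in control MZ and 0.910, 1.33, 0.881 and 0.871 CPM in FO libraries. Itgax, which encodes CD11c, had 1.73, 0.642, 2.37 and 1.86 CPM in deficient MZ, 1.28, 0.642, 1.74 and 2.19 CPM in control MZ and 0.126, 2.85, 0.577 and 0.984 CPM in FO libraries. The MZ groups overlapped for all 3 genes, Zbtb46 separated MZ from FO libraries, and the highest Itgax value of all 12 was FO replicate 4.

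Of the 5 dendritic members tested between deficient and control MZ cells, 0 were called by edgeR, 1 was higher at an unadjusted p under 0.05 and the same gene, Xcr1, was called by DESeq2. Flt3 differed by 0.41 (SE 0.29, adjusted p = 0.473), Zbtb46 by -0.11 (SE 0.22, adjusted p = 0.824) and Itgax by 0.17 (SE 0.39, adjusted p = 0.856; edgeR). Xcr1, a chemokine receptor of cross-presenting dendritic cells named after its values were seen, had 2.90, 2.43, 2.46 and 2.63 CPM in deficient MZ, 1.53, 1.69, 1.93 and 1.73 CPM in control MZ and 0.188, 0.221, 0.213 and 0.141 CPM in FO libraries. Its 3 groups did not overlap, and the log2 difference between deficient and control MZ cells was 0.59 (SE 0.19, adjusted p = 0.108 by edgeR). Siglech, a lectin of plasmacytoid dendritic cells, had 9, 5, 21 and 7 counts in deficient MZ, 22, 8, 50 and 15 counts in control MZ and 0, 0, 2 and 0 counts in FO libraries, a difference between the MZ groups of -1.04 (SE 0.52, adjusted p = 0.295). Against FO, Zbtb46 and Xcr1 were called higher in deficient (2.07 and 3.78) and in control (2.16 and 3.17) MZ cells, and Flt3 was called in neither (0.16 and -0.28). Siglech did not pass edgeR's filter against FO in either group. DESeq2 called it higher in deficient (4.22, adjusted p = 0.0017) and control (5.26, adjusted p = 3.31e-05) MZ cells. Without the filter edgeR called it in both, and with the filter in 5 of 8 control fits that left out 1 library. Itgax was not called in deficient (0.58, adjusted p = 0.459) or control (0.38, adjusted p = 0.628) MZ cells against FO, but without FO replicate 4 it was called in deficient (1.54, adjusted p = 0.0163) and control (1.36, adjusted p = 0.0398) MZ cells.

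**Figure D5:**
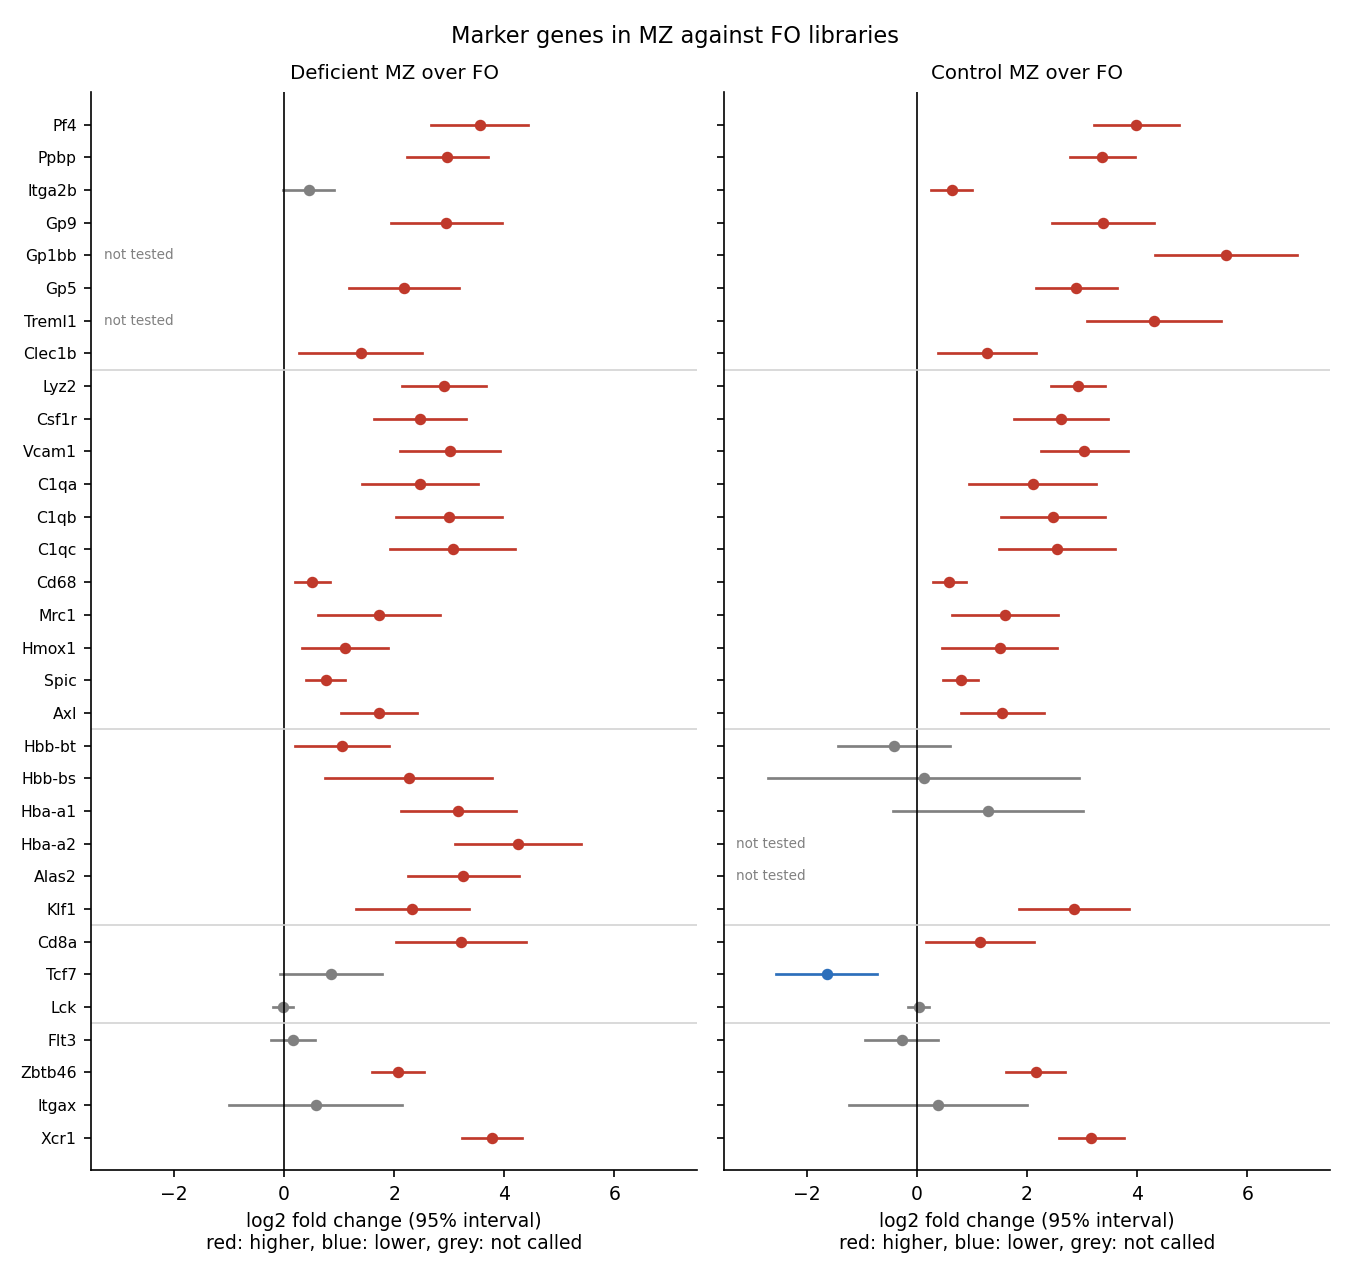
Log2 fold change against FO, with its 95% confidence interval, of each tested marker in deficient MZ and in control MZ cells, from separate edgeR fits that share the 4 FO libraries (red higher, blue lower, grey not called). Most points of both MZ groups lie above 0, Lck and Flt3 lie near 0, and Hbb-bt, Hbb-bs and Hba-a1 have higher values in deficient than in control MZ cells, where Hbb-bt is at -0.42 and Hba-a2 was not tested.

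Granulocyte markers were at the limit of detection. S100a8 and S100a9, the calprotectin subunits that fill neutrophils, had 0, 0, 6 and 0 counts and 0, 1, 1 and 0 counts in deficient MZ, 0, 0, 0 and 2 counts and 0, 0, 1 and 0 counts in control MZ, and 0, 0, 0 and 0 counts and 0, 0, 1 and 1 counts in FO libraries. Only deficient replicate 7 had more than 3 counts of any of the 5 granulocyte members. With Elane, Mpo and Ly6g the list summed to 10 counts in deficient MZ, 5 in control MZ and 4 in FO libraries. A count of 0 allows a level of up to 0.0697 to 0.0961 CPM, the worth of 3 counts in these libraries after scaling, an allowance for counting error only.

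NK markers were nearly as rare. Nkg7, a granule membrane protein of NK and cytotoxic T cells, had 4, 2, 23 and 17 counts in deficient MZ, 2, 4, 7 and 0 counts in control MZ and 0, 1, 2 and 0 counts in FO libraries. Deficient replicates 7 and 8 held most of the deficient counts, and replicates 1 and 2 lay within the control range. Gzma, a granzyme, had 0 counts in the 8 MZ libraries and 1, 2, 0 and 0 in FO libraries, and Ncr1, the NK receptor NKp46, had 2 counts, both in FO replicate 7. No granulocyte or NK member passed the filter on low counts in any of the 3 comparisons, so none was tested by edgeR with it. DESeq2, which filters in another way, called Nkg7 higher in deficient MZ than in FO cells (log2 fold change 3.79, adjusted p = 0.00333), as did edgeR without the filter.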

How the data were processed

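Each library was prepared from sorted splenic B cells. Per the labels' protocols, enrichment on a magnetic kit was followed by gating as B220+ and CD93+, with CD21hi and no CD23 for MZ and with CD21 and CD23 for FO. Per the design text in the labels, MZ libraries used 5 ng of RNA, a SMARTer kit and 100 bp paired reads, and FO libraries a stranded TruSeq kit and 100 bp single reads, while the extraction protocol names SMARTer for every sample. The submitters' processing notes name GRCm38 as the build and list TopHat2 2.0.12 beside HTSeq, Trim Galore and DESeq2 1.10.1, with no order. How reads were counted, by strand or not, and on which annotation release is not stated in these sources. Deposited values are raw counts per gene, 1 column per library. The authors' own log2 fold changes and p-values (adjusted, DESeq2) were quoted and not used in any test.

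Of the gene IDs, 42462 were given symbols from GENCODE M21. Counts were tested with edgeR 4.0.16 (R 4.3.3, limma 3.58.1; TMM, default low-count filter, robust quasi-likelihood), each comparison on its own 8 libraries, with Benjamini-Hochberg adjustment over all tested genes. The biological coefficient of variation was 0.123 for deficient against control MZ, 0.110 for deficient MZ against FO and 0.104 for control MZ against FO. DESeq2 1.42.0, other scalings, no filter, all 12 libraries together, a replicate block and leaving out each library were alternatives. The procedure was tested on simulated data. No library columns were identical (0), and replicate pairs gave 5.78 to 48.6 in a chi-square per gene, above sampling noise. No label says that replicates were separate animals: the p-values reflect only how these samples varied, which could be technical.

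The members and lists were chosen with earlier results of these data known. Values by library are given for members called between the MZ groups, for the 2 members per list highest per kb, for up to 2 per list whose highest library was over 3 times its group's median (on CPM + 0.1), for called genes of the further lists, and for other genes named after their values were seen (Itga2b, Alas2, Klf1, Xcr1, Siglech, Cadm1 and Clec9a, with means for Selp, Siglec1, Car2 and Hemgn). Counts of the B cell genes serve as a check of the sorted type.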

Additional observations from a re-analysis of the deposited data

Results flagged for a closer look

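Of 60 groups of 4 libraries tested with Dixon's criterion, 8 held a library that stood far from the other 3. The criterion marks about 1 in 20 groups of independent, normally distributed values. These groups are not independent, since the list sums contain the same genes and 1 library recurs, so the count cannot be set against that rate. In FO replicate 4, Hbb-bt (2.37 CPM), Hbb-bs (3.07 CPM), Hba-a1 (0.949 CPM) and Zbtb46 (1.33 CPM) each lay far above the other FO libraries. The same library stood apart in the summed macrophage list, at 26.2 CPM with the next FO library at 15.4, and in the summed erythroid list, at 7.09 CPM with the next at 1.94. Its part in the MZ against FO differences is shown by the fits without it. In deficient MZ replicate 1 the summed macrophage list reached 54.3 CPM, with the next deficient library at 40.3. In control MZ replicate 5, Zbtb46 was far below the other control libraries, at 2.79 CPM.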

How the results depend on the processing

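The number of markers called between deficient and control MZ cells was 3 as reported and ranged from 1 to 5 when 1 library was left out: 1 without control replicate 3, control replicate 4 or deficient replicate 8, and 5 without control replicate 5. It was 3 with RLE or upper quartile scaling, without the low-count filter and without the robust spread (the last chosen after seeing the data), 4 with DESeq2 and 2 with all 12 libraries in 1 fit. Against FO, leaving out 1 library gave 22 to 28 members in deficient MZ (25 as reported) and 23 to 28 in control MZ (24 as reported).

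Values near 0 changed sign when 1 library was left out. In deficient against control MZ cells the log2 fold change ranged from -0.44 to 0.14 for Lyz2, -0.25 to 1.32 for Mertk and -0.0761 to 0.44 for Itgax. In deficient MZ against FO it ranged from -0.0719 to 0.0370 for Lck and -0.0306 to 0.27 for Flt3, and in control MZ against FO from -0.92 to 0.13 for Hbb-bt, -1.37 to 1.12 for Hbb-bs and -0.0354 to 0.0919 for Lck. Upper quartile scaling gave 0.10 for Lck in deficient MZ against FO, and the median of all genes against FO was then 0.18 in deficient and 0.19 in control MZ cells, beside 0.06 and 0.05 with TMM. The cause was not tested.

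MZ and FO libraries share replicate numbers (7 and 8 for deficient, 3 and 4 for control MZ), but their genotypes differ. Deviations of same-numbered libraries correlated at 0.143 and 0.0136 for replicates 7 and 8 and at -0.0501 and -0.122 for replicates 3 and 4, so the numbers were not taken as pairs. A fit with the replicate number as a block takes its contrast only from the shared numbers. It thus compares replicates 7 and 8 for deficient MZ and replicates 3 and 4 for control MZ with the same FO numbers. It called 27 members in deficient MZ and 19 (16 higher, 3 lower) in control MZ against FO. With the block, control MZ against FO gave -3.99 for Hbb-bs, -0.75 for Hba-a1, -0.19 for Lck, 0.0711 for Flt3 and -0.0283 for Itgax, and deficient MZ against FO gave 0.11 for Lck. Control replicates 3 and 4 were the low MZ libraries for globin and FO replicate 4 the high FO library, so these values do not describe all 8 libraries. Deficient and control MZ libraries share no replicate number, so no block could be fitted between them. Depth limits the granulocyte and NK markers, which did not pass edgeR's filter, though Nkg7 was called in deficient MZ against FO by DESeq2 and without the filter.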
